A study of Oryctolagus cuniculus with 8 samples.

Results

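The miRNAs miR-7a, miR-9, miR-128 and miR-129, best known from neurons and endocrine cells, were followed in extracellular vesicles of the rabbit oviduct and uterus. They were chosen by name, from both arms of their precursors, as ocu-miR-7a-5p, ocu-miR-7a-3p, ocu-miR-9-5p, ocu-miR-9-3p, ocu-miR-128a-3p, ocu-miR-128b-3p, ocu-miR-129-5p, ocu-miR-129-3p and ocu-miR-129-2-3p, with the near-empty 5p arms of miR-128a and miR-128b. The species prefix ocu is left out below. The deposited table held 11 such mature names among 579 in all. The names miR-128a-3p and miR-128b-3p had identical reads in every library and were counted once, under the name miR-128a-3p, which left 10 profiles. Of these, 9 had at least 1 read, and miR-128b-5p had 0 reads in every library.

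Extracellular vesicles are small membrane-bound particles shed or secreted by cells. They came from oviductal fluid (5 libraries, each a pool of 3 animals) and uterine fluid (3 libraries, each a pool of 5) of wild-type California x New Zealand white does. Ovulation was induced in every doe by 20 µg of an analogue of GnRH, preceded 48 h earlier by 25 IU of the gonadotropin eCG, and tracts were flushed at least 14 to 15 h after induction. The pools held 30 places for 21 does, so pools may share animals, and the p-values measure the spread between pools. The flush volume was 1 mL for oviductal and 2.2 mL for uterine fluid, so its effect cannot be told apart from that of the site. Flushed fluid holds vesicles from every cell type that lines or reaches the tract. A lower level can come from fewer vesicles of one source or from less of the miRNA per vesicle, and these cannot be told apart here. Levels are shares of a library's reads, so they also depend on the reads of the other miRNAs in it.

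A miRNA is a short RNA cut from a hairpin precursor. The side that starts the hairpin gives the 5p arm and the opposite side the 3p arm. One arm is usually loaded into an Argonaute protein, where it pairs with messenger RNAs through the seed near its 5′ end and represses them, while the other arm is mostly degraded. Of the 4 families, miR-7 is abundant in neurosecretory cells of the hypothalamus, pituitary and pancreatic islets. The miR-9 precursors are known from neural progenitors, where both arms act on the repressor complex of neuronal genes, miR-9-5p on REST and miR-9-3p on its partner CoREST. Brain neurons are rich in miR-128, and miR-129 is known from brain and, through its 3p arm and the centriolar protein CP110, from the assembly of cilia.

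In the RefSeq annotation of the assembly mOryCun1.1, the 7 precursors of these names were all found. MIR7A lay within HNRNPK, the gene of an RNA-binding protein that most cells express. MIR128A lay within R3HDM1 and MIR128B within ARPP21, a gene of striatal and other neurons. The MIR9-1, MIR9-2, MIR129-1 and MIR129-2 genes lay within long non-coding RNA genes. The nearest protein-coding genes on either side were MEF2D and RHBG for MIR9-1, TMEM161B and MEF2C for MIR9-2, SND1 and LEP for MIR129-1, and HSD17B12 and TTC17 for MIR129-2. Because miR-9-5p, miR-9-3p, miR-129-5p and miR-128-3p each stood on rows of more than 1 precursor, their reads cannot be assigned to one gene.

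Oviductal libraries had between 42684 and 569087 miRNA reads and uterine libraries between 232546 and 479865, at 1 row per name. Levels are given in counts per 1000000 of those reads (CPM). A read of a miRNA covers the whole molecule, so CPM of different miRNAs need no correction for length. A count of 0 allows up to 3 reads, which stood for 5.27 to 70.3 CPM in the oviductal and 6.25 to 12.9 CPM in the uterine libraries. That limit covers counting error only, since the reads carry no molecular identifiers that the sources used here describe. The uterine libraries differed among themselves. The dominant miR-148a-3p took 47.6%, 54.4% and 29.2% of reads in uterine replicates 12, 3 and 4, and uterine replicate 12 had the fewest names with a read, 160, against 205 and 270 in replicates 3 and 4.

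The 10 profiles summed to 2.19% ± 0.476 of the reads in oviductal vesicles (SD, n = 5) and to 0.835% ± 0.237 in uterine vesicles (SD, n = 3). The oviductal libraries ran from 1.54% (exact 95% binomial interval 1.51 to 1.58) to 2.63% (2.48 to 2.77). The uterine ones were at 0.665% (0.632 to 0.699) in replicate 12, 1.11% (1.08 to 1.14) in replicate 3 and 0.735% (0.704 to 0.766) in replicate 4. No uterine library reached the lowest oviductal one. These shares are a description without a test, and most of them was miR-7a. Without miR-7a the groups overlapped, at 0.318% to 0.607% of oviductal reads and 0.147% to 0.518% of uterine reads.

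**Figure D1:**
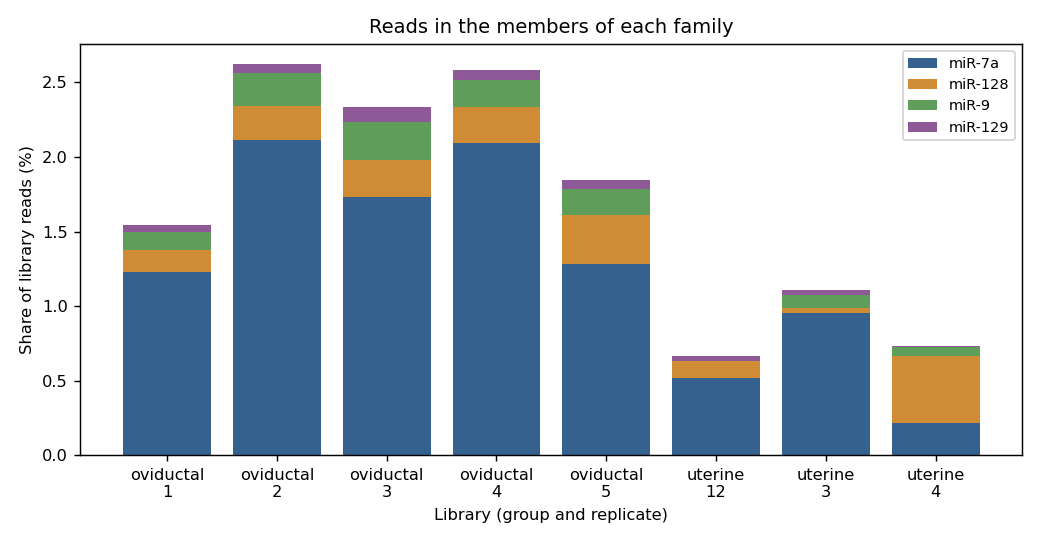
Share of each library's reads (percent, vertical axis) in miR-7a, miR-128, miR-9 and miR-129, both arms summed, for 5 oviductal and 3 uterine libraries (horizontal axis). The miR-7a part is the largest in every library except uterine replicate 4, where miR-128 makes up 61.4% of the members' reads.

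The makeup by family varied less among the oviductal pools than among the uterine ones. In oviductal libraries miR-7a made up 69.5% to 80.9% of the members' reads, miR-128 8.80% to 17.97%, miR-9 7.05% to 11.0% and miR-129 2.48% to 4.21%. Uterine replicate 4 stood apart, with 29.5% for miR-7a and 61.4% for miR-128 (exact 95% binomial interval 59.3 to 63.5). In uterine replicate 3 the order was the opposite, with 86.1% for miR-7a and 3.39% for miR-128 (2.92 to 3.92). Uterine replicate 12 had no miR-9 read at all. Its 77.8% for miR-7a and 17.5% for miR-128 lay within the oviductal ranges, and its 4.72% for miR-129 just above. The top of the oviductal range for miR-128 was replicate 5 alone, and the next highest library was at 10.7%.

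Of the 10 profiles, 6 passed the filter on low counts and were tested with edgeR among 178 names. None of the 6 passed an adjusted p of 0.05 in edgeR. Over all 178 names 3 passed (1.69%), all higher in uterine vesicles, and 0% passed in the lower direction. Without adjustment 1 member, miR-9-3p, had p under 0.05 in edgeR, in the lower direction, as did 5.62% of all tested names. By DESeq2 and limma-voom 0 members passed the adjusted threshold, and 1 and 4 had an unadjusted p under 0.05 in the lower direction, as did 7.3% and 12.4% of all 178 names in the same fits. All 6 log2 fold changes of uterine over oviductal were negative, with a median of -1.25, and that of miR-128a-3p turned positive in 4 of 20 alternatives, while 51.1% of all tested names were negative and their median was -0.02. The members' median is a description only. For miR-9-3p, no uterine library reached the level the filter asked for (36.6 CPM, the value of 10 reads at the median library size), so it was tested because of its oviductal reads, and for miR-129-3p 1 uterine library did.

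**Figure D2:**
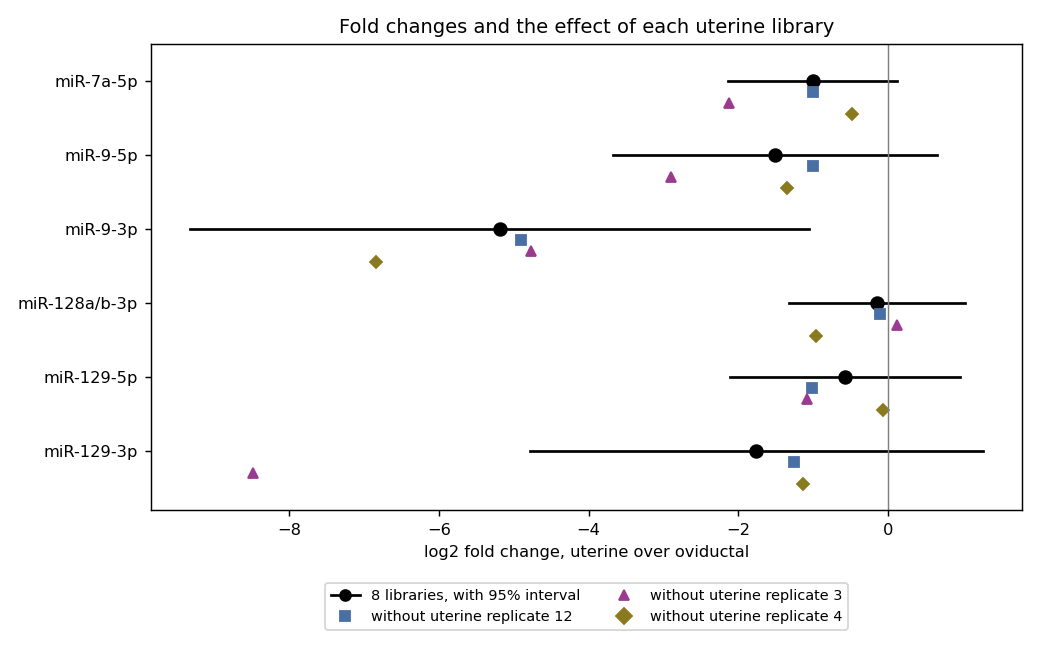
Log2 fold change of uterine over oviductal (horizontal axis) for the 6 tested miRNAs, from edgeR on 8 libraries with its 95% interval (black), and with each uterine library left out (coloured marks). Only the interval of miR-9-3p lies clear of 0 before adjustment, and without uterine replicate 3 the value for miR-129-3p is fitted against libraries with 0 reads.

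Of the family known from endocrine cells, miR-7a-5p was the most abundant member in every library but one, uterine replicate 4, and the 15th most abundant of all names by mean level in oviductal and the 20th in uterine vesicles. It was at 12244, 21135, 17290, 20904 and 12803 CPM in oviductal replicates 1 to 5 and at 5173, 9444 and 2125 CPM in uterine replicates 12, 3 and 4. In CPM every uterine library lay below every oviductal one, which also held for 10.1% of all tested names. After scaling by trimmed mean of M values (TMM), which sets libraries on the level of their typical miRNA, uterine replicate 3 was at 14187 and the lowest oviductal library at 11579, so the groups overlapped. The means were 16875 ± 4260 CPM in oviductal (SD, n = 5) and 5581 ± 3677 CPM in uterine vesicles (SD, n = 3). The log2 fold change was -1.001 ± 0.54 (SE), with a 95% interval of -2.13 to 0.13 and an edgeR adjusted p of 0.426. It was -2.12 without uterine replicate 3, with an edgeR adjusted p of 0.0120, in a comparison where 7.5% of 200 tested names were called lower. Without uterine replicate 4 it was -0.48, and without oviductal replicate 4 it was -0.77.

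The other arm of the same hairpin, miR-7a-3p, was rare and lay the other way. It had 7, 0, 0, 0 and 1 reads in oviductal replicates 1 to 5 and 0, 35 and 12 reads in uterine replicates 12, 3 and 4. It thus had 8 reads in the oviductal group against 47 in the uterine group, in fewer total reads, and the 47 came from 2 of the 3 uterine libraries. It did not pass the filter. With no filter its log2 fold change was 3.22, with an edgeR adjusted p of 0.449. As a share of both arms, miR-7a-3p was 0.766% in uterine replicate 3 (exact 95% binomial interval 0.534 to 1.06) and 1.90% in uterine replicate 4 (0.986 to 3.30). In oviductal replicates 1 and 5 it was 0.129% (0.0520 to 0.266) and 0.0137% (0.000347 to 0.0764), and in uterine replicate 12 it was 0 of 1203 reads, which allows up to 0.249%. The log2 ratio of 5p to 3p averaged 11.3 ± 1.51 in oviductal (SD, n = 5) and 7.95 ± 2.92 in uterine vesicles (SD, n = 3), a difference of -3.37, or -2.15 with a pseudocount of 5 in place of 0.5. The exact two-sided permutation p was 0.143, or 0.190 adjusted over the 4 arm pairs tested. Uterine replicate 12, within the oviductal range, was the exception among the uterine libraries, and without it the difference was -5.01, where 2 uterine libraries cannot give an exact p below 0.0952.

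**Figure D3:**
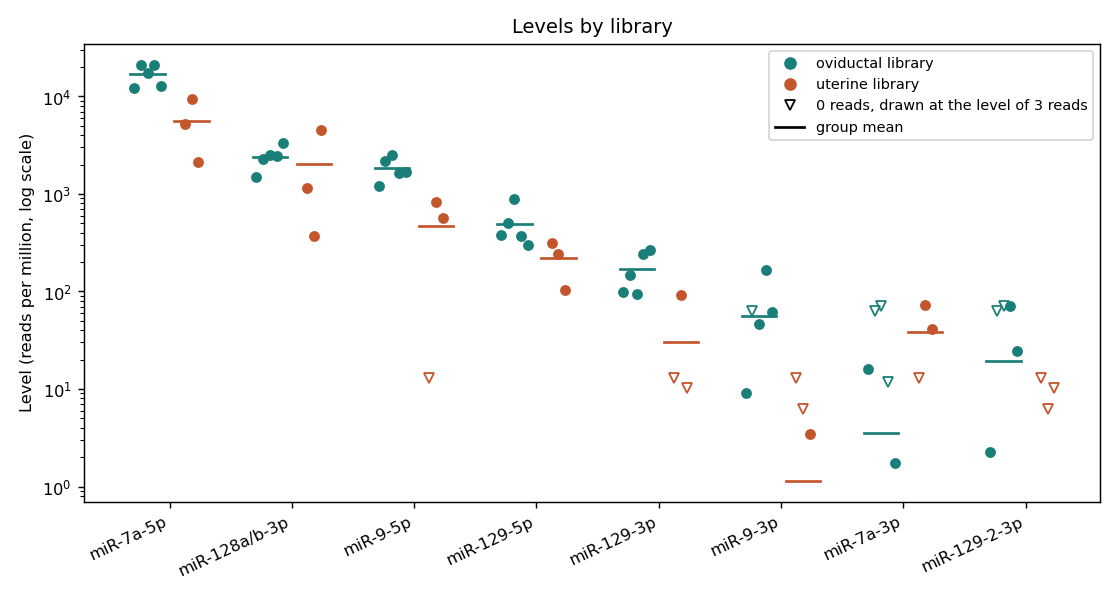
Level of 8 miRNAs in CPM (vertical axis, log scale) in each oviductal and uterine library, left to right in the order of replicates, with the mean of each group as a bar. Open triangles are libraries with 0 reads, drawn at the value of 3 reads. For miR-7a-5p, miR-9-5p and miR-129-3p every uterine library lies below every oviductal one on this scale, as for 10.1% of all tested names. For miR-129-3p the gap is narrow, 91.7 against 93.7 CPM. After TMM scaling only miR-9-5p keeps the groups apart.

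The neural progenitor miRNA miR-9-5p was at 1203, 2164, 2530, 1658 and 1669 CPM in oviductal replicates 1 to 5. In uterine vesicles it was at 834 CPM in replicate 3 and 563 CPM in replicate 4, and replicate 12 had 0 of its 232546 reads. Every uterine library was below every oviductal one in CPM and also after TMM scaling, where the highest uterine value was 1252 and the lowest oviductal 1312. Among all tested names 5.62% had groups apart in that direction after TMM scaling. The means were 1845 ± 512 CPM in oviductal (SD, n = 5) and 465 ± 425 CPM in uterine vesicles (SD, n = 3). The log2 fold change was -1.51 ± 1.01 (SE), with a 95% interval of -3.67 to 0.66 and an edgeR adjusted p of 0.536. It was -1.002 without uterine replicate 12 and -2.89 without uterine replicate 3, and neither passed (edgeR adjusted p 0.601 and 0.130). By limma-voom it was -2.93 (adjusted p 0.117).

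By its number of reads, uterine replicate 12 was deep enough to show miR-9-5p at the level of any other library. By a floor of 3 reads, which covers counting error only, the level of miR-9-5p there was at least 93.2-fold lower than in the lowest oviductal library. But uterine replicate 12 had 160 names with a read, against 206 and 197 in oviductal replicates 2 and 3, from only 47598 and 42684 reads. Whether miR-9-5p was absent from this pool or lost from its library was not tested. Among the 81 names with at least 100 CPM in every other library, 4 had no read in uterine replicate 12. They were miR-9-5p, the epithelial miR-205-5p, miR-34c-3p of the multiciliated-cell family, and miR-760-3p, and were named after their values were seen. No other library had a name at 0 under the same rule.

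The opposite arm, miR-9-3p, had 4, 0, 2, 42 and 35 reads in oviductal replicates 1 to 5 and 0, 0 and 1 reads in uterine replicates 12, 3 and 4. Its oviductal reads lay mostly in replicates 4 and 5, at 165 and 61.5 CPM, against 9.06 and 46.9 CPM in replicates 1 and 3. Pooled over libraries, 83 reads in 1355490 stood against 1 in 1003739, a ratio of 61.5 with an exact 95% counting interval of 10.7 to 2456. Without oviductal replicate 4 that ratio was 37.4 (6.34 to 1512). The interval covers counting error only and not the spread between pools. The log2 fold change was -5.19 ± 1.97 (SE), a value that depends on the small count added to a group of nearly no reads, with an edgeR p of 0.0169 and an adjusted p of 0.174. It could not be tested without oviductal replicate 3, 4 or 5, where it failed the filter.

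Within the miR-9 hairpins the 3p arm was 9.05% of the reads of both arms in oviductal replicate 4 (exact 95% binomial interval 6.60 to 12.04) and 3.55% in oviductal replicate 5 (2.49 to 4.91). It was 0.748% in oviductal replicate 1 (0.204 to 1.90), a library with more miR-9-5p reads than replicate 4. Uterine replicate 3 had 0 of 400 reads on this arm, which allows up to 0.75%, and uterine replicate 4 had 1 of 165, or 0.606% (0.0153 to 3.33). Oviductal replicate 2 had 0 of 103, which allows up to 2.91%, and oviductal replicate 3 had 1.82% (0.221 to 6.41). The interval of uterine replicate 4 overlapped those of oviductal replicates 1, 2, 3 and 5 and lay below that of oviductal replicate 4. No test of this ratio was made, because uterine replicate 12 had no read from either arm.

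**Figure D4:**
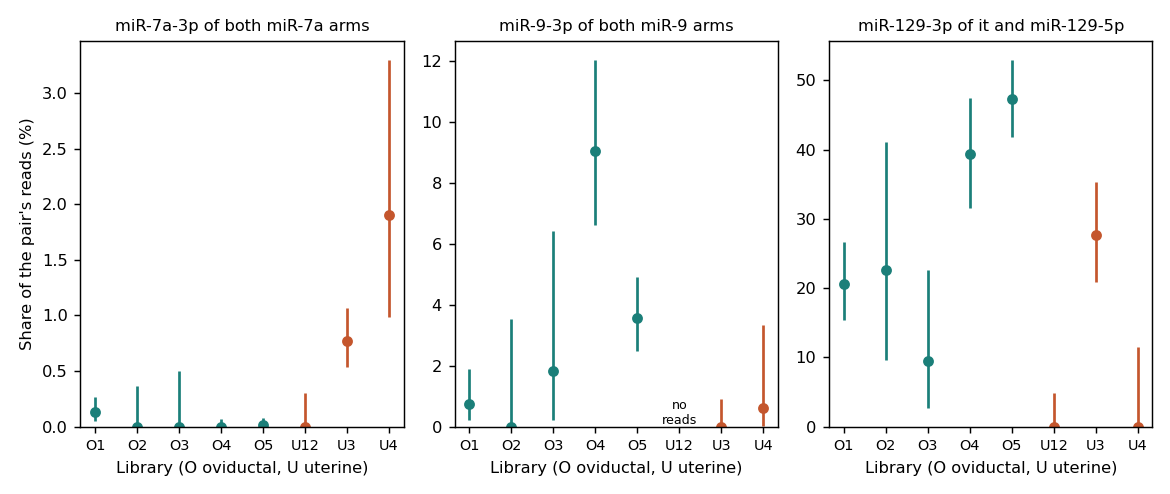
Share of the reads of an arm pair (percent, vertical axes of different range) on miR-7a-3p, miR-9-3p and miR-129-3p in each library (horizontal axes), with exact 95% binomial intervals as bars. The miR-7a-3p share is highest in uterine replicates 3 and 4, and the miR-129-3p share is 0 in uterine replicates 12 and 4.

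The neuronal miRNA miR-128a-3p, which cannot be told from miR-128b-3p, was the second member by mean level. It was at 1477, 2290, 2483, 2427 and 3309 CPM in oviductal replicates 1 to 5 and at 1161, 375 and 4507 CPM in uterine replicates 12, 3 and 4. The highest and the lowest of the 8 libraries were both uterine. The means were 2397 ± 652 CPM in oviductal (SD, n = 5) and 2014 ± 2194 CPM in uterine vesicles (SD, n = 3). The log2 fold change was -0.15 ± 0.56 (SE), with a 95% interval of -1.33 to 1.03 and an edgeR adjusted p of 0.946, and it turned positive with upper-quartile factors, with other filters and without uterine replicate 3. The interval holds changes of more than 2-fold in either direction. Its value without uterine replicate 4 was -0.96 (edgeR adjusted p 0.379). The other arm, miR-128a-5p, had 1 to 3 reads in each oviductal library and 0, 0 and 1 in the uterine ones. At most 0.935% of the miR-128a pair lay on it in any library (exact 95% binomial interval 0.0237 to 5.10, oviductal replicate 3). The log2 ratio of its arms was 1.49 higher in the uterine group (exact two-sided permutation p = 0.214, adjusted p 0.214), a value set by single reads, since it was 0.34 with a pseudocount of 5.

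The miRNA miR-129-5p, made by both miR-129 precursors, was at 383, 504, 890, 369 and 297 CPM in oviductal replicates 1 to 5 and at 314, 240 and 103 CPM in uterine replicates 12, 3 and 4. Uterine replicate 12 lay above oviductal replicate 5, and the other 2 uterine libraries lay below every oviductal one. After TMM scaling only uterine replicate 4 did. The means were 489 ± 237 CPM in oviductal (SD, n = 5) and 219 ± 107 CPM in uterine vesicles (SD, n = 3). The log2 fold change was -0.57 ± 0.73 (SE), with a 95% interval of -2.10 to 0.96 and an edgeR adjusted p of 0.802. It was -0.07 without uterine replicate 4 and -0.32 without oviductal replicate 3, the highest library, and -1.01 and -1.08 without uterine replicates 12 and 3.

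The arm known to act on CP110 in cilia assembly, miR-129-3p, comes from the precursor mir-129-1. It was at 99.7, 147, 93.7, 240 and 267 CPM in oviductal replicates 1 to 5, at 91.7 CPM in uterine replicate 3, and had 0 reads in uterine replicates 12 and 4. All 44 uterine reads came from replicate 3, which reached almost the lowest oviductal level in CPM and after TMM scaling stood among the oviductal libraries, at 138 in a range of 72.7 to 244. The means were 169 ± 79.9 CPM in oviductal (SD, n = 5) and 30.6 ± 52.9 CPM in uterine vesicles (SD, n = 3). The log2 fold change was -1.76 ± 1.44 (SE), with a 95% interval of -4.79 to 1.27 and an edgeR adjusted p of 0.642. It passed without uterine replicate 3 (edgeR adjusted p 0.0128), in a fit where 7.5% of 200 tested names were called lower. Leaving out that library takes away all 44 uterine reads, so the call is no separate support for a difference. By a floor of 3 reads over the remaining uterine libraries the level was at least 29.6-fold lower than the oviductal mean. That bound follows from the same removal, and the call rests on 2 uterine libraries. By limma-voom, with all libraries, the log2 fold change was -4.35 (adjusted p 0.089).

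The arm from the other precursor, miR-129-2-3p, had 1, 0, 0, 18 and 14 reads in oviductal replicates 1 to 5 and none in any uterine library. Against a uterine floor of 3 reads in the whole group, its mean oviductal level of 19.5 CPM was at least 6.53-fold higher, and without oviductal replicate 4 that bound was 2.25-fold. Oviductal replicates 2 and 3 also had 0 reads, at depths where 3 reads are 63.0 and 70.3 CPM, so the 24.6 CPM seen in replicate 5 could not have been told from none there. It did not pass the filter, and with no filter its edgeR adjusted p was 0.279.

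Both rare arms, miR-9-3p and miR-129-2-3p, had most of their reads in the same oviductal libraries, replicates 4 and 5. Read numbers follow depth, and replicates 2 and 3 were shallow. The levels in replicate 5, 61.5 and 24.6 CPM, lay below the value of 3 reads there, 63.0 and 70.3 CPM. So replicates 2 and 3 cannot show a lower level than replicate 5. The share of miR-129-3p in its pair with miR-129-5p was also highest in oviductal replicates 4 and 5, at 39.4% (exact 95% binomial interval 31.6 to 47.5) and 47.4% (41.8 to 53.0). It was 20.7% (15.4 to 26.7) in replicate 1, 22.6% (9.59 to 41.1) in replicate 2 and 9.52% (2.66 to 22.6) in replicate 3. In uterine replicate 3 that share was 27.7% (20.9 to 35.3). It was 0 of 73 reads in uterine replicate 12 and 0 of 30 in replicate 4, which allow up to 4.11% and 10%. The log2 ratio of miR-129-5p to miR-129-3p averaged 1.501 ± 1.16 in oviductal (SD, n = 5) and 4.84 ± 3.06 in uterine vesicles (SD, n = 3), a difference of 3.33 (exact two-sided permutation p = 0.143, adjusted p 0.190). For miR-129-5p to miR-129-2-3p the difference was 2.07 (exact two-sided permutation p = 0.107, adjusted p 0.190). With a pseudocount of 5 these differences were 1.47 and 0.63. The smallest p that 5 against 3 libraries allow is 0.0357.

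Other miRNAs known from neurons, glia or endocrine cells were looked up by name. Of 18 such miRNAs 12 were in the table, with 27 names of which 14 had no read. Of these, miR-124, miR-137, miR-138, miR-153 and miR-219, the last known from glia, were at or near 0. The neuronal miR-124 had 1 read on each arm, both in oviductal replicate 2, and all 13 names of miR-124, miR-137, miR-138, miR-153 and miR-219 together had 56 reads in the 8 libraries, with 7 names at 0, among them every name of miR-219. They held 0% to 0.0105% of oviductal and 0% to 0.00292% of uterine reads. In that list miR-153-3p had the most reads, with 8, 0, 2, 0 and 16 in oviductal replicates 1 to 5 and 10 in uterine replicate 3 alone.

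Of the same 18, 2 were abundant. The islet miRNA miR-375-3p, which epithelia also express, was at 15268 ± 8203 CPM in oviductal (SD, n = 5) and 4421 ± 1664 CPM in uterine vesicles (SD, n = 3). Its log2 fold change was -1.31 ± 0.50 (SE; edgeR adjusted p 0.174). The miRNA miR-218-5p, known from motor neurons and from the SLIT genes, was at 4041 ± 815 and 2731 ± 1702 CPM in the same order, and its log2 fold change was -0.33 ± 0.45 (SE; edgeR adjusted p 0.814). The activity-linked neuronal miR-212 had few reads, with miR-212-5p at 0 to 21 per oviductal library and 1, 27 and 0 in uterine replicates 12, 3 and 4 (log2 fold change 0.36, edgeR adjusted p 0.964). Its other arm, miR-212-3p, had 17 of its 27 reads in uterine replicate 3, and miR-346-5p had all of its 23 in oviductal replicate 5. Of the 3 tested names of the list 0 passed the adjusted threshold in edgeR, DESeq2 or limma-voom, and 1, miR-375-3p, had an unadjusted p under 0.05 in each. In the same direction 5.62%, 7.3% and 12.4% of all names did in these 3 fits.

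Markers of other cell types were measured in the same libraries. Of 6 epithelial miRNAs sought, 3 were in the table, with 6 names of which miR-205-3p was at 0. They held 3.61% to 5.33% of oviductal reads and 0.470%, 2.46% and 1.47% in uterine replicates 12, 3 and 4. The miR-34/miR-449 names of multiciliated cells, 8 names with the 3p arms of miR-449a and miR-449b at 0, held 2.77% to 6.12% of oviductal reads and 0.495%, 3.38% and 1.33% in the same uterine order. Muscle and mesenchymal names, 12 with 5 at 0, held 0.388% to 0.477% of oviductal and 2.57%, 0.569% and 4.69% of uterine reads. Single names did not all follow these sums. Oviductal and uterine means were 891 and 906 CPM for miR-141-3p, 57.0 and 162 for miR-449a-5p, and 62.5 and 18.5 for miR-133a-3p. Of the tested names, 3 of 4 epithelial, 4 of 5 multiciliated and 0 of 5 muscle and mesenchymal ones had negative log2 fold changes. Over all tested names 51.1% did. The part of these cell types in the levels of miR-7a, miR-9, miR-128 and miR-129 was not tested. As for the blood cell lists, erythrocyte names (5, with 1 at 0) held 0.0922% to 0.288% of oviductal and 0.123% to 0.768% of uterine reads, leukocyte names (10, with 4 at 0) 0.102% to 0.245% and 0.0786% to 0.367%, and the liver miRNA miR-122 (2 names, with 1 at 0) 0.00615% to 0.0588% and 0.0299% to 0.306%.

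For each tested member the 3 names with the most similar order of the 8 libraries were listed, by Spearman's rho of log2 TMM-scaled CPM with a pseudocount of 1. The libraries share depth and composition, so these values are a description. Closest to miR-7a-5p were miR-672-5p (rho 0.905), the islet and epithelial miR-375-3p (0.810) and miR-96-5p (0.762). Closest to miR-9-5p were miR-1343-3p (0.976) and, of the sensory and epithelial miR-183 cluster, miR-183-5p (0.976) and miR-182-5p (0.929). The arm miR-9-3p was closest to miR-744-5p (0.903), miR-135a-5p (0.875) and miR-125b-5p (0.830). The miRNA miR-128a-3p was closest to miR-134-5p (0.878), miR-6529-3p and miR-135b-5p (0.762 for both). The arm miR-129-3p was closest to miR-7180-3p (0.976), miR-204-5p (0.970) and miR-34c-5p of multiciliated cells (0.874), while miR-129-5p had weaker matches, miR-196a-2-5p (0.762, with the same reads as miR-196a-5p), miR-206-3p and miR-106b-3p (0.738 for both).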

How the data were processed

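The authors deposited raw read counts for each pair of mature miRNA and precursor, and RPM beside them, which are these counts scaled to a column sum of 1000000 (largest difference from that 0.005). Per the submitters' processing notes FastQC was run and the genome build was OryCun2.0. For aligner and counter, names are not given in the sources used. For each of 579 names its deepest row was used. CPM were computed from these counts. Counts were tested with edgeR 4.0.16 under R 4.3.3 (quasi-likelihood test, robust, TMM, filterByExpr, Benjamini-Hochberg over 178 names, threshold 0.05), with SE from the fold change and its F statistic. The script was tested on simulated data. Alternatives used DESeq2 1.42.0, limma 3.58.1 (voom), other scalings, filters and rows, blocks by number and the removal of each library. Arm ratios (pseudocount 0.5) were compared by exact permutation in scipy 1.17.1, for pairs with a read in every library. All members are named, related miRNAs with at least 10 reads in a library, and the 3 names closest in pattern. Members, lists and tests were chosen with earlier results of these data known. The sequences of the miRNAs are not used here.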

Additional observations from a re-analysis of the deposited data

Results flagged for a closer look

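In the oviductal group of 5, 3 values of 19 sets of 5 checked stood apart by Dixon's criterion (gap over range above 0.71). With normally spread values chance meets it in about 1 group in 20, a rate that counts near 0 need not follow. Replicate 1 was high for miR-7a-3p, at 15.9 CPM from 7 reads, and for the share of that arm in both miR-7a arms, 0.129%, where the other 4 libraries had 0 or 1 read. Both values rest on the same 7 reads. Replicate 5 was high for the share of miR-128 in the members' reads, 17.97%, against 8.80% to 10.7% in the others.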

How the results depend on the processing

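The number of miRNAs past the adjusted threshold over all names, 3, was 6 with upper-quartile factors, 1 with library totals only, 13 with no filter (354 tested), 8 with at least 10 reads in every library (77 tested), 7 with rows of one name summed, 11 by DESeq2, 1 by limma-voom and 0 without the 2 shallowest libraries (20 at an unadjusted p under 0.05), and ran from 1 to 27 with single libraries left out. Of the 6 tested members 0 passed in every alternative except that without uterine replicate 3, with 2 (range 0 to 2). In that fit 27 of all 200 tested names passed, 15 of them lower in uterine vesicles. Upper-quartile factors moved the median log2 fold change of all names from -0.02 to 0.19 and library totals moved it to -0.31. The value of miR-128a-3p turned to 0.091 with upper-quartile factors, 0.094 with no filter and 0.021 with at least 10 reads in every library, and ran from -0.96 to 0.12 with single libraries left out, turning without uterine replicate 3. The cause was not tested. The other 5 stayed negative wherever they could be fitted, 20 alternatives for miR-7a-5p and miR-129-5p, 19 for miR-9-5p and miR-129-3p and 15 for miR-9-3p. Over the alternatives the adjusted p reached 0.998 for each of the 6 and was lowest at 0.0120 for miR-7a-5p, 0.0128 for miR-129-3p, 0.113 for miR-9-3p, 0.117 for miR-9-5p, 0.379 for miR-128a-3p and 0.471 for miR-129-5p. With a replicate block by the number in the title the count was 0 (edgeR, 8 at an unadjusted p under 0.05) and with one by the number in the library name 0 (11 so). Only replicates 3 and 4 share a title number, and the deviations of same-numbered libraries correlated at -0.122 and -0.114, and at -0.133 for number 1 of the library names. Libraries with different numbers correlated at -0.133 to 0.157. So few values, taken from the means of small groups, cannot show whether same-numbered pools share animals. The summed share, which has no test, was -1.35 percentage points, uterine minus oviductal, and -1.51 to -1.24 with single libraries left out. The 4 arm ratios kept their direction, and their sizes shrank with a larger pseudocount. With 1 library left out their exact permutation p cannot fall below 0.0571 or 0.0952, so those p-values say nothing of stability. Depth limits the rare arms: 1 read was 21.0 and 23.4 CPM in oviductal replicates 2 and 3.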

Other observations

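The 5p and 3p arms of miR-9 and of miR-129, whose 5p reads can come from more than 1 precursor, were compared in the order of their libraries. Over the 8 libraries Spearman's rho of log2 TMM-scaled CPM was 0.464 between miR-9-5p and miR-9-3p and -0.311 between miR-129-5p and miR-129-3p. Between families it was 0.667 for miR-7a-5p and miR-9-5p, 0.707 for miR-7a-5p and miR-129-3p, and -0.238 for miR-7a-5p and miR-128a-3p. These values are descriptions over libraries that share depth and composition, and those of the rare arms rest on few reads.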
